A study of Mus musculus with 6 samples.

Results

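The genes described here are those of mitosis, the kinetochore and the kinesin motors, read from a table of FPKM in 6 mouse RNA-seq libraries. FPKM is the number of sequenced fragments of a gene, corrected for transcript length and for the size of the library. The members were taken by symbol: every row beginning Kif and a number (24 genes), every row beginning Cenp followed by letters (17 genes), and 26 mitotic genes listed by name. They came to 67 of the 10041 rows. The rule works on symbols and uses no measured value, but the members were chosen with earlier results of these data known. All 67 passed the filter on low values (a value of 1 FPKM or more in 3 or more libraries), as did 9986 rows in all.

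The cells were naive mouse CD4 T cells driven toward Th17 cells, the helper T cells that make IL-17. All 6 cultures had antibodies to the T cell receptor and its costimulator (anti-CD3e bound to the plate at 10 µg/ml, and anti-CD28 at 1 µg/ml) and, as polarizing cytokines, IL-23 at 10 ng/ml, IL-6 at 20 ng/ml and TGFb1 at 2.5 ng/ml, for 48 h. The 3 control libraries had the solvent DMSO, and the 3 treated libraries had oligomycin at 2.5 ng/ml, an inhibitor of the mitochondrial ATP synthase. The sources used here give no strain, sex or age of the mice, no cell numbers and no share of living cells. Nothing in them ties the numbered libraries of the table to separate animals or cultures, so the p-values measure only the spread between these libraries. Replicate numbers are the numbers in the deposited column names.

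Mitosis separates the copied chromosomes. Cyclin B with CDK1 drives entry into it, the kinetochore built on each centromere binds spindle microtubules, and a checkpoint holds the cell until every kinetochore is attached. The anaphase-promoting complex (APC/C) then marks cyclin B and securin for destruction. Kinesins are motors that walk along or shorten microtubules: one group builds and works the spindle, and others carry vesicles and organelles in cells that are not dividing. Many mitotic genes are transcribed late in the cell cycle, through promoters in which CCAAT boxes and a cell cycle homology region (CHR) are known elements. T cells divide rapidly after activation, so this program is normally strong in such cultures.

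With oligomycin, 50 of the 67 members fell, 0 rose and 17 did not pass the test, at an adjusted p under 0.05 (limma on log2(FPKM + 1), Benjamini-Hochberg over all 9986 genes). Of all tested genes 30.2% were called: 16.1% lower and 14% higher. By the parts of the rule, all 26 genes listed by name fell, as did 12 of the 24 Kif genes and 12 of the 17 Cenp genes. The median change of the members was -1.45 on the log2 scale, against -0.00 for all tested genes. For 53 members every oligomycin library lay below every DMSO library, an order that 24.3% of all tested genes had. Kif1b lay wholly above, as 23.1% of all tested genes did, and the groups of 13 members overlapped. A fall of at least 2-fold in the group means was called for 45 members, against 6.77% of all tested genes. For 33 members the called fall was at least 3-fold, as it was for 319 of all 9986 tested genes. Summed over the 67 genes, control FPKM came to 2694, 2857 and 2795, and treated FPKM to 1074, 914 and 1013. In bulk RNA, fewer dividing cells and less of each mRNA per dividing cell cannot be told apart.

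The 17 that did not pass belonged to few roles. All 12 kinesins of transport or other roles were among them, with a median change of 0.08. The other 5 were Cenp genes, among them Cenpj, which encodes a centriole protein. Among the remaining 55 members, 50 fell, with a median change of -1.60.

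**Figure D1:**
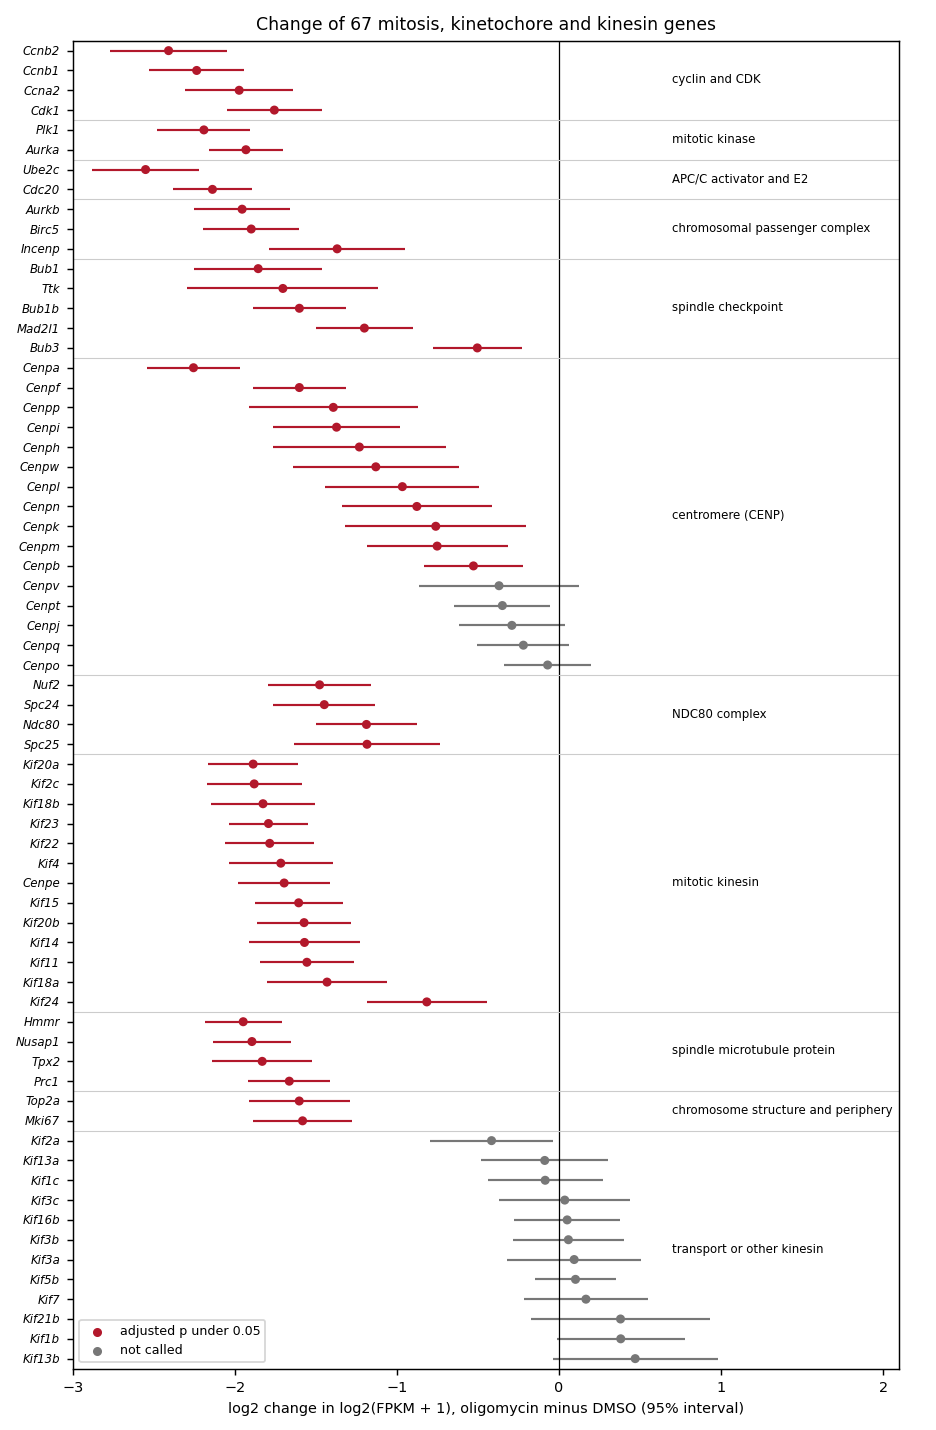
Change of each of the 67 genes on the log2(FPKM + 1) scale, oligomycin minus DMSO, grouped by role; points are limma estimates from 3 libraries a group and bars are 95% intervals. Red points passed the test (50 genes, all to the left of 0) and grey points did not (17 genes, 12 of them transport or other kinesins at the bottom).

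The promoters are shown first because they are where late cell cycle transcription is known to be set, and because their motif letters are counted below by role. RefSeq windows of 300 bases (250 before to 50 after the start, build GRCm38.p6) matched 58 of the 67 members. Those not matched were Aurkb, Ccna2, Incenp, Kif13b, Kif20a, Kif21b, Kif5b, Spc24 and Tpx2. The motifs searched on both strands were TTTGAA for the CHR, CCAAT for the CCAAT box and GCGGGAA for an E2F-like site, and none of the 3 contains another. The following are the 120 bases just upstream of the start of 9 genes, 5′ to 3′ on the strand of the gene, with CHR and CCAAT letters (or their reverse complement) in capitals. The first 6 are promoters of genes that fell at least 3-fold, Bub3 fell least of all called members, and Kif3b and Kif1c did not pass the test.
Ccnb2 (chr9:70421555-70421674, minus strand): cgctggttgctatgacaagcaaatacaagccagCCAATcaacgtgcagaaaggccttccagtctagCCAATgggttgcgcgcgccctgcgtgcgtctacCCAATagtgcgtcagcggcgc
Cdk1 (chr10:69352913-69353032, minus strand): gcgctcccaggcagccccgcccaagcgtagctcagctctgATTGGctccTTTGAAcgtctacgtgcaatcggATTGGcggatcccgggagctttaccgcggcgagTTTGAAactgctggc
Cdc20 (chr4:118437344-118437463, minus strand): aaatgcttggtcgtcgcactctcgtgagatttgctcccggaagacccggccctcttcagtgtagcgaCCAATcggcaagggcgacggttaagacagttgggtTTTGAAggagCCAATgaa
Ube2c (chr2:164769809-164769928, plus strand): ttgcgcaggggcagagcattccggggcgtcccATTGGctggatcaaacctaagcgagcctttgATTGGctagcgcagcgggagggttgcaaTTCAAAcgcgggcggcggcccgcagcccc
Top2a (chr11:99024190-99024309, minus strand): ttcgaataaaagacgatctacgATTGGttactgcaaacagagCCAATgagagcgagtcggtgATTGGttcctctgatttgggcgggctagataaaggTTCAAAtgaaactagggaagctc
Kif11 (chr19:37376262-37376381, plus strand): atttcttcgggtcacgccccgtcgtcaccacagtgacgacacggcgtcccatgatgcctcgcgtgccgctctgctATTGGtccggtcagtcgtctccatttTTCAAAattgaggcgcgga
Bub3 (chr7:131560250-131560369, plus strand): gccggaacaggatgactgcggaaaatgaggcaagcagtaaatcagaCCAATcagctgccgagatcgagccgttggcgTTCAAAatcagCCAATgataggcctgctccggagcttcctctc
Kif3b (chr2:153291296-153291415, plus strand): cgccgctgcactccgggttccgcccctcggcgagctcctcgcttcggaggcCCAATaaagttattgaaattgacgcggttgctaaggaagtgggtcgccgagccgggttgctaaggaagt
Kif1c (chr11:70700428-70700547, plus strand): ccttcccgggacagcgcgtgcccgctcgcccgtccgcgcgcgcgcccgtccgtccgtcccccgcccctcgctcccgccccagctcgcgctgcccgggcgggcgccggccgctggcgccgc

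In the Cdk1 stretch the CHR letters begin 71 and 15 bases before the start, with reversed CCAAT letters at 80 and 48 bases before it. The Ube2c, Kif11 and Top2a stretches each carry the CHR in reverse, at 29, 19 and 23 bases before the start, downstream of CCAAT boxes. Ccnb2 shows 3 CCAAT boxes spaced along its stretch, at 87, 54 and 21 bases before the start; its CHR letters lie outside the printed part, 167 bases before the start and 5 bases into the transcript. Kif3b has 1 CCAAT box and no CHR letters, and Kif1c has neither.

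CHR letters stood in the windows of 29 of the 44 called members that had one (65.9%) and in 0 of the 14 that were not called. Of all 32851 RefSeq windows 17.9% held them, of the 7102 tested genes with a window 11.4%, and of the 1091 other genes called lower 15.9%. By role they were in 9 of 12 mitotic kinesins and 0 of 9 transport or other kinesins. In 49 of the 58 member windows the RefSeq start lay within 100 bases of the table's start. It lay farthest away for Cenpb (424757 bases), Nusap1 (8766), Cenpo (6158), Kif2c (3852) and Kif7 (1521). Of these only the window of Kif2c held the letters, and all but Kif2c share their locus with another row. Cenpb and Nusap1 are thus counted as called members without CHR letters from windows far from the table's start. CCAAT letters were in 33 of the 44 called members (75%) and 4 of the 14 others, against 37.4% of all windows. Both motifs were in 25 of the 44, against 6.95% of all windows. The 29 members with CHR letters had a median change of -1.66, and the 20 members without them, transport or other kinesins left out, had one of -1.22. Bub3 carries a CHR and CCAAT boxes but fell only 1.42-fold, while Ccnb1 fell 5.63-fold with no CHR letters in its window. These matches describe letters in the windows, and no binding was measured here.

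**Figure D2:**
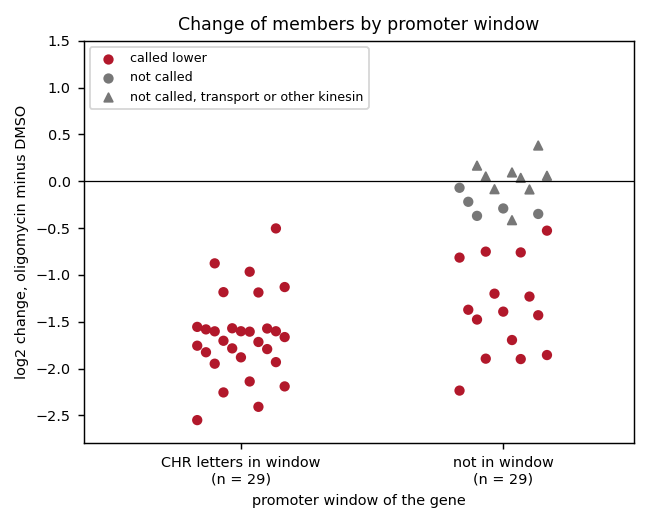
Log2 change of the 58 members with a RefSeq window, split by whether the CHR letters were in it (29 genes on each side); circles are genes, triangles are transport or other kinesins, red passed the test and grey did not. All 29 genes with the letters fell, while the side without them holds 15 that fell and 14 that did not pass the test.

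The cyclins and the kinase that drive mitotic entry were among the members that fell most, with a median change of -2.10. Ccnb2, which encodes cyclin B2, measured 71.3, 82.2 and 69 FPKM with DMSO and 11.3, 11.9 and 16.7 FPKM with oligomycin, a 5.58-fold lower mean (means 74.2 ± 7.02 and 13.3 ± 2.94 FPKM, SD, n = 3; log2 change -2.41, SE 0.16, adjusted p = 4.46e-05). Ccnb1, encoding cyclin B1, measured 21.7, 21.6 and 22.5 FPKM with DMSO and 4.27, 3.18 and 4.21 FPKM with oligomycin, and its mean was 5.63-fold lower (adjusted p = 3.59e-05). Ccna2, the cyclin that acts in S phase and early mitosis, went from 166, 171 and 166 FPKM with DMSO to 48.4, 33.8 and 45.1 FPKM with oligomycin, 3.95-fold lower. Their partner Cdk1 measured 78.8, 70.6 and 77.8 FPKM with DMSO and 25.4, 19.5 and 20.6 FPKM with oligomycin, 3.47-fold lower (log2 change -1.76, SE 0.13, adjusted p = 6.94e-05). No oligomycin library of these 4 genes came near a DMSO library: the highest treated value of Ccnb2, 16.7 FPKM, stood beside a lowest control value of 69.0 FPKM. In the table's coordinates (GRCm38), Ccnb2 lies at chr9:70407689-70421554, Ccnb1 at chr13:100778739-100786486 and Cdk1 at chr10:69336635-69352912.

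Both mitotic kinases among the members fell. Plk1, the polo-like kinase that acts on centrosomes, kinetochores and cytokinesis, measured 43.4, 45.9 and 38.5 FPKM with DMSO and 9.65, 7.68 and 8.34 FPKM with oligomycin. The difference was 4.98-fold (means 42.6 ± 3.78 and 8.56 ± 1.0 FPKM, SD, n = 3; log2 change -2.19, SE 0.13, adjusted p = 3.59e-05). Aurka, the kinase of spindle poles, was even within groups, with 54.8, 56.8 and 57.9 FPKM with DMSO and 14.1, 13.8 and 14.3 FPKM with oligomycin, 4.02-fold lower (adjusted p = 2.89e-05). Plk1 is at chr7:122159437-122169875 and Aurka at chr2:172356196-172370506.

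Both members that end mitosis through the APC/C fell as well. Ube2c, the ubiquitin-conjugating enzyme that works with the APC/C, had the largest fall of all members, with 122, 139 and 141 FPKM with DMSO and 25.8, 18.3 and 22.4 FPKM with oligomycin. Its mean was 6.04-fold lower (means 134 ± 10.6 and 22.2 ± 3.77 FPKM, SD, n = 3; log2 change -2.55, SE 0.14, adjusted p = 3.59e-05), and it ranked 28 among the 1610 genes called lower. Cdc20, the activator that the spindle checkpoint holds back, measured 88, 102 and 96.5 FPKM with DMSO and 21.2, 21 and 20.4 FPKM with oligomycin, 4.57-fold lower (adjusted p = 2.64e-05). The 3 treated libraries of Cdc20 lay within 1 FPKM of each other. Ube2c is at chr2:164769929-164772902. The locus that holds Cdc20 is chr4:118428093-118437343, which need not be the extent of Cdc20 alone. Cdc20, like Ccna2, Nusap1, Kif20a and Cenpb among the called members, shares its locus with another row of the table, so the split of fragments between such rows is uncertain.

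The chromosomal passenger complex corrects faulty attachments and drives cytokinesis. Its kinase Aurkb measured 82.5, 88.2 and 78.4 FPKM with DMSO and 22.7, 17.5 and 22.1 FPKM with oligomycin, 4.0-fold lower (means 83 ± 4.94 and 20.8 ± 2.87 FPKM, SD, n = 3; log2 change -1.96, SE 0.13, adjusted p = 4.77e-05). Birc5, which encodes survivin, measured 120.1, 152 and 146 FPKM with DMSO and 39.4, 33.7 and 36.4 FPKM with oligomycin, 3.82-fold lower (adjusted p = 5.28e-05). Incenp, the scaffold of the complex, fell less, from 28.7, 36.7 and 32.2 FPKM to 15.4, 12.1 and 9.09 FPKM, 2.67-fold (adjusted p = 0.00112). All 3 genes had every oligomycin library below every DMSO library, and the median change was -1.90. Aurkb lies at chr11:69045643-69051662 and Birc5 at chr11:117849237-117855743.

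All 5 checkpoint genes fell, by sizes from 3.88-fold to 1.42-fold. Bub1, a kinase at unattached kinetochores, measured 31.3, 28.3 and 31.6 FPKM with DMSO and 9.06, 5.56 and 8.86 FPKM with oligomycin, 3.88-fold lower (adjusted p = 0.000197). Ttk, encoding the MPS1 kinase that starts the signal, was even across DMSO libraries (13.6, 12.9 and 13.3 FPKM) and uneven across oligomycin libraries (4.91, 1.75 and 4.19 FPKM), 3.67-fold lower with an adjusted p of 0.00212. Bub1b, encoding BUBR1, had 56.9, 65.3 and 61.4 FPKM with DMSO and 22, 17.1 and 19.5 FPKM with oligomycin, 3.13-fold lower. BUBR1 is part of the complex that inhibits CDC20, and so is the product of Mad2l1, which measured 52, 42 and 50.5 FPKM with DMSO and 22.4, 18.1 and 20.7 FPKM with oligomycin and was 2.36-fold lower (adjusted p = 0.000433). Bub3, which brings BUB1 and BUBR1 to the kinetochore, had the smallest fall of the called members: 122, 119.8 and 107 FPKM with DMSO and 88.4, 74.5 and 82.5 FPKM with oligomycin, 1.42-fold (log2 change -0.50, SE 0.12, adjusted p = 0.0151). Its groups did not overlap, but without DMSO replicate 1 or without DMSO replicate 2 it no longer passed the test (adjusted p up to 0.0632). Bub1 is at chr2:127800200-127831859, Ttk at chr9:83834689-83872390 and Bub3 at chr7:131560391-131571898.

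The centromere genes spanned the widest range of any mitotic role. Cenpa, the histone H3 variant that marks the centromere, measured 96.2, 105 and 96.2 FPKM with DMSO and 17.1, 22.2 and 20.9 FPKM with oligomycin, 4.94-fold lower (means 99.1 ± 5.07 and 20.1 ± 2.67 FPKM, SD, n = 3; log2 change -2.26, SE 0.13, adjusted p = 3.59e-05). Cenpf, a large protein of the outer kinetochore, measured 10.7, 9.36 and 10.5 FPKM with DMSO and 2.88, 2.5 and 2.65 FPKM with oligomycin, 3.8-fold lower (adjusted p = 8.36e-05). These were the only members of the 16 in this role that fell at least 3-fold. Cenpa lies at chr5:30666902-30674826 and Cenpf at chr1:189640614-189688086.

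Most other Cenp genes encode subunits of the constitutive centromere-associated network (CCAN), which sits on CENP-A chromatin through the whole cell cycle. Of the 11 CCAN subunits among the members, a grouping made after their values were seen, 8 fell, and the median change was -0.88. CCAN subunits under other symbols are not in that count. Apitd1 (CENP-S) fell 1.57-fold, and Cenpc1 (CENP-C), given under the other observations, also fell. Mlf1ip (CENP-U, log2 change -0.81, adjusted p = 0.0789) and Stra13 (CENP-X, log2 change -0.07, adjusted p = 0.714) did not pass. Cenpp went from 14.9, 13.5 and 15.8 FPKM to 4.62, 3.39 and 7.74 FPKM (2.81-fold), and Cenpi from 16.6, 14.4 and 16.7 FPKM to 6.76, 4.07 and 6.05 FPKM (2.83-fold). Cenph measured 19, 18.3 and 19.6 FPKM with DMSO and 10.3, 4.62 and 8.64 FPKM with oligomycin (2.41-fold lower), and Cenpw, whose product is a histone-fold protein, 19.2, 15.6 and 17 FPKM with DMSO and 11.2, 5.49 and 6.26 FPKM with oligomycin (2.26-fold lower). In Cenph and Cenpw 1 oligomycin library, replicate 1, stood above the others at 10.3 and 11.2 FPKM, still below every DMSO library. Cenpl was low throughout, with 6.09, 3.4 and 5.12 FPKM against 2.31, 2.1 and 1.49 FPKM (2.47-fold, adjusted p = 0.0101). Cenpn, which reads CENP-A chromatin, went from 13.5, 14 and 14.2 FPKM to 9.08, 4.72 and 8.24 FPKM (1.89-fold, adjusted p = 0.0134).

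The last CCAN subunits that passed did so narrowly. Cenpk measured 16.1, 15.3 and 13.6 FPKM with DMSO and 9.59, 5.15 and 11.9 FPKM with oligomycin, 1.69-fold lower (adjusted p = 0.0464), and lost the call in 9 of 15 other settings, among them leaving out any DMSO library or oligomycin replicate 1 (adjusted p up to 0.122). Cenpm measured 17.5, 17.8 and 14.2 FPKM with DMSO and 12.9, 7.46 and 8.46 FPKM with oligomycin, 1.72-fold lower (adjusted p = 0.0194), and lost the call when DMSO replicate 1 or 2 or oligomycin replicate 3 was left out (adjusted p up to 0.0648). Cenpb, which binds a repeated DNA box in centromeric satellites and is no CCAN subunit, measured 48, 63 and 58.5 FPKM with DMSO and 42.1, 38.5 and 35.6 FPKM with oligomycin, 1.46-fold lower (adjusted p = 0.0196). It lost the call when DMSO replicate 2 or 3 or oligomycin replicate 3 was left out (adjusted p up to 0.077).

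Cenpv, Cenpt, Cenpj, Cenpq and Cenpo did not pass the test. Their log2 changes ran from -0.37 to -0.07. Cenpq had the highest mean of the 5, with 22.2, 17.6 and 19.7 FPKM with DMSO and 18.4, 16.4 and 15.8 FPKM with oligomycin (log2 change -0.22, adjusted p = 0.211), and its groups overlapped. Of the others, Cenpt and Cenpj were picked after their values were seen. Cenpt, whose product links the CCAN to the NDC80 complex, had every oligomycin library (12.8, 12.5 and 10.9 FPKM) below every DMSO library (13.5, 17.1 and 16.5 FPKM), with an adjusted p of 0.0722. Cenpj is named for a centromere but encodes a centriole protein, and it measured 3.6, 4.89 and 4.08 FPKM with DMSO and 3.24, 3.25 and 3.17 FPKM with oligomycin (adjusted p = 0.158).

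The NDC80 complex is the rod that grips microtubules, and all 4 of its subunits fell within a narrow band, from 2.89-fold to 2.29-fold. Nuf2 measured 42.7, 37.5 and 38.8 FPKM with DMSO and 15.3, 11.2 and 14.6 FPKM with oligomycin (2.89-fold lower, adjusted p = 0.000204), and Ndc80 measured 36.6, 34 and 33.1 FPKM with DMSO and 15.6, 12.1 and 16.5 FPKM with oligomycin (2.35-fold lower, adjusted p = 0.000535). These proteins form the end that binds microtubules, while SPC24 and SPC25 bind the inner kinetochore. Spc24 went from 48, 60.1 and 48.1 FPKM to 20.4, 16.1 and 18.8 FPKM (2.83-fold), and Spc25 from 39, 35.1 and 43 FPKM to 21.8, 12 and 17.3 FPKM (2.29-fold). Their FPKM levels were alike in the control: means of 39.6, 52.1, 34.6 and 39.0 FPKM for Nuf2, Spc24, Ndc80 and Spc25. Nuf2 is at chr1:169497934-169531464 and Ndc80 at chr17:71496100-71526857.

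The kinesins were grouped by their best-known role. All 13 grouped here as mitotic fell (12 named Kif, and Cenpe, which carries chromosomes to the middle of the spindle), with a median change of -1.70. Kif2a, which acts at spindle poles and also in neurons, was placed with the other 12 and did not pass the test. Kif24, a centriole motor, was placed with the 13 and fell. The split depends on where both are put, and the roles were chosen with earlier results of these data known. Averaged over those 13, log2(FPKM + 1) relative to the mean of the 6 libraries was 0.77, 0.83 and 0.85 with DMSO and -0.71, -0.95 and -0.78 with oligomycin. The same averages over the 12 transport or other kinesins were -0.08, 0.02 and -0.08 with DMSO and -0.07, 0.25 and -0.04 with oligomycin. The first group separates the treatments in every library, and the second does not.

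Among motors of the spindle, Kif11, encoding the tetramer Eg5 that pushes the poles apart, had the highest control level, with 72.6, 73.4 and 79 FPKM with DMSO and 26.9, 21.1 and 27.1 FPKM with oligomycin. It was 3.0-fold lower (means 75 ± 3.46 and 25 ± 3.39 FPKM, SD, n = 3; log2 change -1.56, SE 0.13, adjusted p = 0.000104). Kif15, which can share the work of Eg5, measured 31.3, 32.3 and 34 FPKM with DMSO and 10.5, 8.75 and 10.9 FPKM with oligomycin (3.24-fold lower, adjusted p = 7.01e-05). Cenpe measured 15.1, 14.6 and 15.3 FPKM with DMSO and 4.56, 3.79 and 3.53 FPKM with oligomycin (3.79-fold lower, adjusted p = 6.94e-05). The DMSO libraries of Cenpe differed by less than 1 FPKM.

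The motors that shorten microtubules or set their length also fell. Kif2c, encoding MCAK, which strips tubulin from wrongly attached microtubules, measured 30.4, 33.3 and 37 FPKM with DMSO and 9.57, 7.85 and 7.77 FPKM with oligomycin (4.0-fold lower). Kif18a, which damps chromosome movements, went from 14, 11.9 and 13.7 FPKM to 4.66, 3.21 and 5.1 FPKM (3.06-fold, adjusted p = 0.000511). Its relative Kif18b had 18.1, 22.4 and 20.8 FPKM with DMSO and 4.18, 5.66 and 5.33 FPKM with oligomycin (4.04-fold lower, adjusted p = 8.05e-05). Kif24, a centriole motor that restrains cilia, fell least of the 13, from 4.13, 4.16 and 3.47 FPKM to 2.26, 1.6 and 1.56 FPKM (2.17-fold, adjusted p = 0.00715).

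The motors on chromosome arms and at the midzone completed the group. Kif22, a chromokinesin, measured 37.7, 45.4 and 41.2 FPKM with DMSO and 12.3, 10.3 and 11.3 FPKM with oligomycin (3.66-fold lower), and Kif4, another chromokinesin that also works at the midzone, measured 24.2, 28.4 and 27.5 FPKM with DMSO and 8.9, 6.34 and 7.17 FPKM with oligomycin (3.57-fold lower). Their adjusted p-values were 5.07e-05 and 0.000104. Kif20a, a partner of the passenger complex in cytokinesis, measured 49.4, 58 and 54.8 FPKM with DMSO and 15.5, 12.4 and 13.8 FPKM with oligomycin (3.89-fold lower, adjusted p = 4.46e-05). Kif23, the motor of the centralspindlin complex, measured 20.4, 21 and 21.3 FPKM with DMSO and 5.6, 5.02 and 5.35 FPKM with oligomycin (3.92-fold lower, adjusted p = 3.59e-05). Kif20b and Kif14 also act in cytokinesis. Kif20b went from 17.7, 17.1 and 18.9 FPKM to 5.54, 4.58 and 5.99 FPKM (3.33-fold), and Kif14 from 8.98, 8.18 and 8.91 FPKM to 2.51, 1.73 and 2.61 FPKM (3.8-fold). Kif11 lies at chr19:37376403-37421859, Kif2c at chr4:117159636-117182624 and Kif23 at chr9:61917278-61946799.

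The 12 other kinesins were Kif2a, Kif13a, Kif1c, Kif3c, Kif16b, Kif3b, Kif3a, Kif5b, Kif7, Kif21b, Kif1b and Kif13b. Kif5b, the conventional kinesin heavy chain, had the highest level, with 36.3, 36.9 and 41.8 FPKM with DMSO and 42.4, 39.3 and 41.7 FPKM with oligomycin (log2 change 0.10, SE 0.11, adjusted p = 0.501), and its groups overlapped. Kif3b, a subunit of the heterotrimeric kinesin-2 whose promoter is printed above, measured 17.2, 23.3 and 20.5 FPKM with DMSO and 19.7, 24.6 and 19.2 FPKM with oligomycin (adjusted p = 0.786), again with overlap. Changes in the 12 ran from -0.42 to 0.47 on the log2 scale, and the sign of 5 small ones (Kif3a, Kif3b, Kif3c, Kif16b and Kif1c) turned when 1 library was left out.

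The genes at the ends of that range were picked after their values were seen. Kif2a, a relative of Kif2c that shortens microtubules, measured 6.84, 7.05 and 6.47 FPKM with DMSO and 3.64, 5.95 and 5.15 FPKM with oligomycin (log2 change -0.42, adjusted p = 0.0893). Its treated libraries all lay below its controls, and without oligomycin replicate 2 it passed the test (log2 change -0.54, adjusted p = 0.0408). Kif1b, which encodes a carrier of vesicles and mitochondria, had every treated library above every control, with 12.1, 12.1 and 11.2 FPKM with DMSO and 12.4, 20.7 and 14.9 FPKM with oligomycin (adjusted p = 0.129), and it passed only without oligomycin replicate 1 (log2 change 0.54, adjusted p = 0.0349). Kif13b measured 2.39, 4.1 and 3.83 FPKM with DMSO and 3.73, 6.66 and 5.13 FPKM with oligomycin (log2 change 0.47, adjusted p = 0.143), and its groups overlapped. In both Kif1b and Kif13b oligomycin replicate 2 was the highest library.

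**Figure D3:**
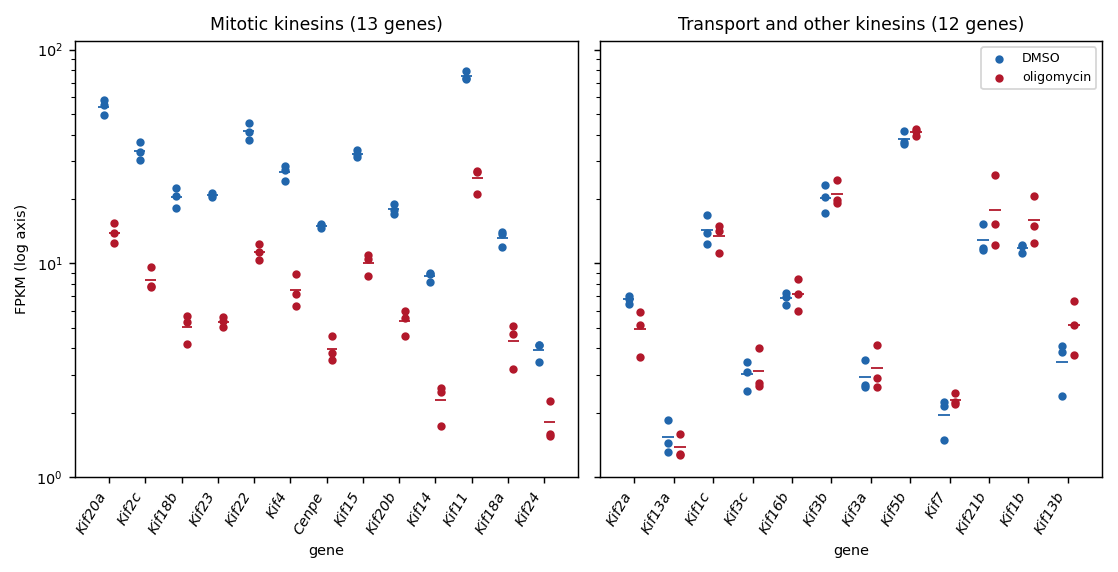
FPKM of each kinesin gene in each library on a log axis, DMSO in blue and oligomycin in red, with short lines at the means of 3 libraries. In the 13 mitotic kinesins on the left the colours separate for every gene; in the 12 transport or other kinesins on the right they overlap for 10.

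The proteins that bundle and nucleate spindle microtubules fell together, with a median change of -1.86. Hmmr, encoding a spindle assembly factor also known as a hyaluronan receptor, measured 36.7, 35.7 and 37 FPKM with DMSO and 9.06, 8.14 and 8.93 FPKM with oligomycin, 4.18-fold lower (means 36.4 ± 0.666 and 8.71 ± 0.497 FPKM, SD, n = 3; log2 change -1.95, SE 0.10, adjusted p = 3.39e-05). Nusap1, a microtubule bundling protein, measured 67.2, 67.1 and 66.3 FPKM with DMSO and 16.3, 16.9 and 18.6 FPKM with oligomycin (3.87-fold lower, adjusted p = 3.59e-05). Tpx2, the activator of Aurora A on the spindle, measured 57.8, 60.6 and 60.2 FPKM with DMSO and 18.4, 13.2 and 16.9 FPKM with oligomycin (3.69-fold lower), and Prc1, which crosslinks midzone microtubules, measured 48.7, 55.3 and 52.1 FPKM with DMSO and 16.7, 14.6 and 16 FPKM with oligomycin (3.31-fold lower). The DMSO libraries of Hmmr and of Nusap1 each lay within 2 FPKM of each other.

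Top2a and Mki67 are the usual readouts of proliferation. Top2a, the topoisomerase that untangles sister chromatids, had the highest level of all members, with 322, 331 and 340.2 FPKM with DMSO and 117, 91.6 and 118 FPKM with oligomycin, 3.04-fold lower (means 331 ± 9.0 and 109 ± 15.1 FPKM, SD, n = 3; log2 change -1.60, SE 0.14, adjusted p = 0.000125). Mki67, the Ki-67 protein that coats mitotic chromosomes, measured 47.8, 56.9 and 49.3 FPKM with DMSO and 19, 16.3 and 14.3 FPKM with oligomycin, 3.1-fold lower (adjusted p = 0.000123). Neither gene had a treated library near a control library: the highest treated value of Top2a was 118 FPKM and its lowest control value 322 FPKM. Top2a is at chr11:98992947-99024189 and Mki67 at chr7:135689788-135716379.

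**Figure D4:**
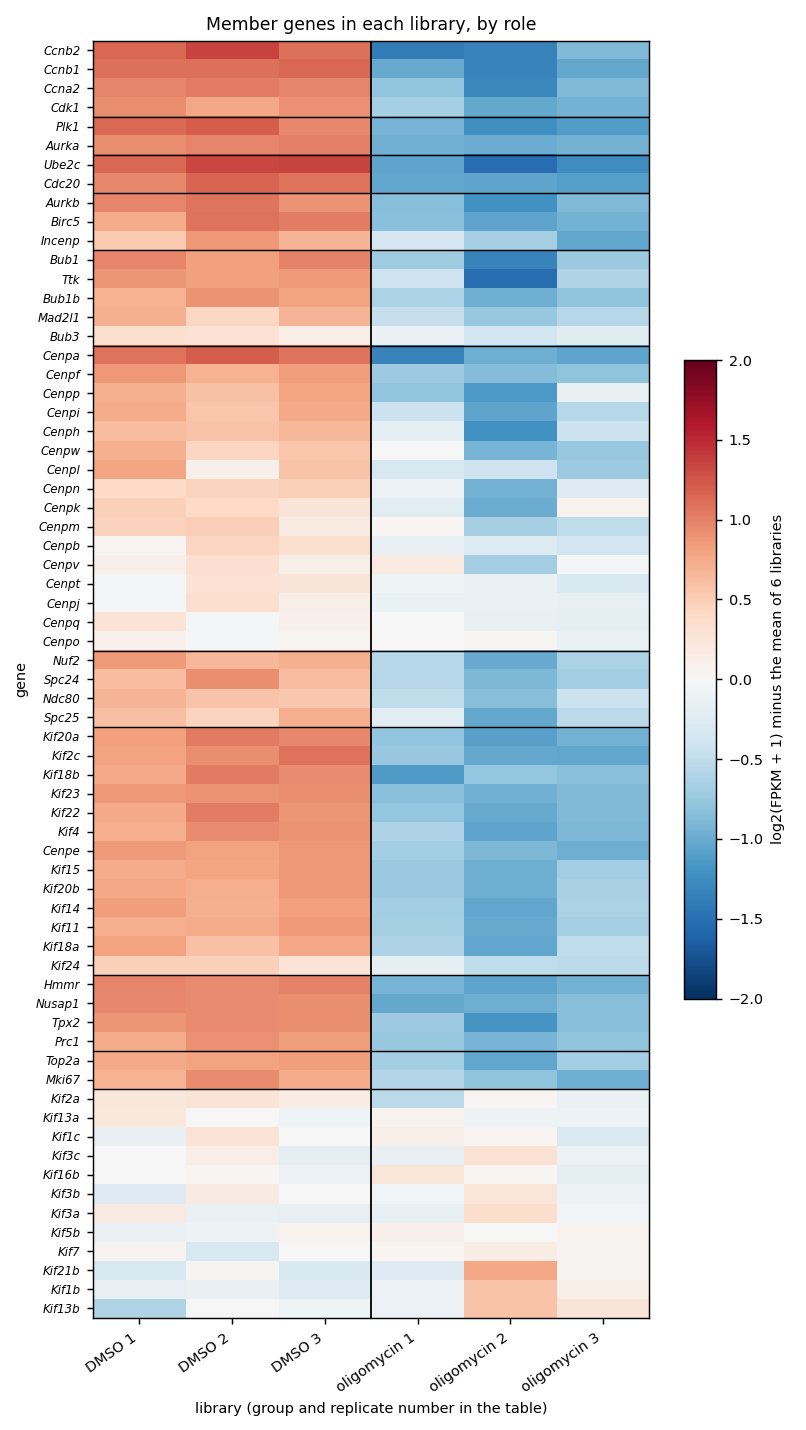
The 67 genes (rows, by role) in the 6 libraries (columns), coloured by log2(FPKM + 1) minus the mean of that gene over the 6 libraries; red is higher and blue lower. The 50 called genes change colour between DMSO and oligomycin, the groups of 13 of the 17 others overlap, and oligomycin 2 is the darkest blue for 38 of the 50 called genes.

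The oligomycin libraries were not alike. Replicate 2 had the lowest treated value for 38 of the 50 members that fell (76%), and so it had for 52.1% of the 1610 genes called lower and 33.8% of all tested genes. It had the highest treated value for 10 of the 17 members that did not pass, and for 4012 of all 9986 tested genes. Without it 51 members fell and the median change was -1.36. Among the 67 members the change was related to the control level as a description: Pearson's r between the log2 change and the log2 control level was -0.66 (Spearman's rho -0.68) across genes. For the 55 members other than transport or other kinesins r was -0.54 (rho -0.57), and across all tested genes it was -0.24. Genes are not independent replicates here, both axes share the DMSO libraries, and the added pseudocount of 1 FPKM understates the change of low genes.

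Genes of the same machinery under other names fell less uniformly. Of 109 such genes in 7 lists, 71 fell, 1 rose and 37 did not pass, with a median change of -0.79 (1 gene, Espl1, stands in 2 lists). Spindle and cytokinesis genes came closest to the members: 19 of 20 fell, with a median of -1.54. They include Aspm, a spindle pole protein (4.1-fold), Anln, the ring protein anillin (3.89-fold), and Racgap1, the centralspindlin partner of Kif23 (2.03-fold). The list also holds Kifc1, a minus-end motor whose symbol the rule does not match, which measured 9.63, 12.7 and 9.72 FPKM with DMSO and 4.63, 5.75 and 4.58 FPKM with oligomycin (2.14-fold lower, adjusted p = 0.0024). Numa1, which anchors spindle poles, was the gene of that list that did not pass, with 21.7, 34.8 and 29.8 FPKM with DMSO and 33.9, 51.8 and 31.9 FPKM with oligomycin (adjusted p = 0.175).

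Of the 13 genes of mitotic entry, exit and checkpoint control 10 fell (median -1.39). The phosphatases that switch on CDK1 fell unequally: Cdc25b 4.49-fold and Cdc25c 4.9-fold, while Cdc25a measured 30.9, 26.8 and 35.2 FPKM with DMSO and 27.5, 18.8 and 22 FPKM with oligomycin and did not pass (adjusted p = 0.0739). Mad1l1, the checkpoint partner of Mad2l1, did not pass either, with 15, 22.3 and 19.1 FPKM with DMSO and 15.4, 18.8 and 13.4 FPKM with oligomycin (adjusted p = 0.347). Among 13 further kinetochore genes 10 fell (median -0.92). Casc5, the KNL1 scaffold for the checkpoint, fell 3.73-fold and Ska1, which tracks microtubule ends, 3.81-fold, while Zwint, a KNL1 partner, measured 24.7, 25.2 and 28.6 FPKM with DMSO and 35.7, 26.6 and 27.6 FPKM with oligomycin (adjusted p = 0.354) and did not pass. Of 9 centromere and passenger partners under older symbols 7 fell (median -1.07). Cdca8, the borealin subunit of the passenger complex, fell 3.08-fold, beside Aurkb above.

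The APC/C list divided between regulators and core. Of its 17 genes 8 fell (median -0.31). Those that fell at least 2-fold were Pttg1 (securin, 3.87-fold), Espl1 (separase, 3.86-fold), Fzr1 (the late activator CDH1, 2.78-fold) and Fbxo5 (the inhibitor EMI1, 2.27-fold). The other 13 encode subunits of the complex itself, of which Anapc2, Cdc16, Cdc27 and Anapc4 fell by 1.63-fold or less and 9 did not pass. Anapc5 had the highest level of these, with 154, 165 and 152 FPKM with DMSO and 137, 125 and 119 FPKM with oligomycin (log2 change -0.31, adjusted p = 0.0747). So the activator Cdc20 and the enzyme Ube2c fell 4.57-fold and 6.04-fold while no measured core subunit fell 2-fold.

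Condensin and cohesin genes changed unequally. Of the 17 genes 9 fell and 1 rose (median -0.42). The condensin I subunits Ncapg, Ncapd2 and Ncaph fell 3.22-fold, 2.57-fold and 2.52-fold. The other condensin genes of the list also fell: Ncapg2 2.33-fold, Smc2 2.26-fold, Smc4 1.76-fold, Ncaph2 1.41-fold and Ncapd3 1.36-fold. Of the cohesin ring, which acts outside mitosis as well, Rad21 fell 1.97-fold, while Smc1a did not pass (log2 change -0.28, adjusted p = 0.108), nor did the cohesin regulator Pds5a (log2 change -0.29, adjusted p = 0.0627). Nipbl, the cohesin loader, rose, with 10.8, 8.4 and 10.3 FPKM with DMSO and 15.2, 16.6 and 14.4 FPKM with oligomycin (log2 change 0.61, adjusted p = 0.0097).

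Among 21 regulators of cell cycle transcription 9 fell and 0 rose (median -0.34). The activator Mybl2 had the largest fall, with 12.4, 15.9 and 13.4 FPKM with DMSO and 6.37, 4.15 and 4.04 FPKM with oligomycin (2.87-fold, adjusted p = 0.000923), followed by E2f8 (2.67-fold) and E2f2 (2.33-fold). Mybl2 encodes B-MYB, which joins the MuvB complex at CHR promoters. The MuvB subunits Lin9 and Lin54, the latter of which binds the CHR, fell 1.6-fold and 1.58-fold. The MuvB subunits Rbbp4, Lin37 and Lin52 did not pass (log2 changes -0.30, 0.08 and 0.38). Nfyb, a subunit of the factor that binds CCAAT boxes, fell 1.45-fold. Its partner subunits Nfya and Nfyc did not pass (log2 changes 0.30 and 0.06). These uncalled subunits were looked up after the other values were seen. E2f4, a repressor that works with the pocket proteins, measured 51, 60.5 and 57.9 FPKM with DMSO and 54.2, 51.4 and 40.4 FPKM with oligomycin and did not pass (adjusted p = 0.269).

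DNA replication genes, which belong to S phase, fell often but by less. Of 52 genes 32 fell and 0 rose, with a median change of -0.56, and none fell 3-fold. Rrm2, the ribonucleotide reductase subunit, had the largest fall, with 190.4, 162 and 198 FPKM with DMSO and 93.5, 54.7 and 67.2 FPKM with oligomycin (2.55-fold), and Pcna, the sliding clamp, went from 307, 324 and 283 FPKM to 265, 174 and 192 FPKM (1.45-fold, adjusted p = 0.0415). CHR letters were in 5 of the 43 replication windows (11.6%) and in 32 of the 80 windows of the other 7 lists (40%). E2F-like letters were in 18 of the 43 (41.9%), in 5 of the 11 windows of CCAN members (45.5%), in 9.32% of the windows of tested genes and in 4.60% of all windows.

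**Figure D5:**
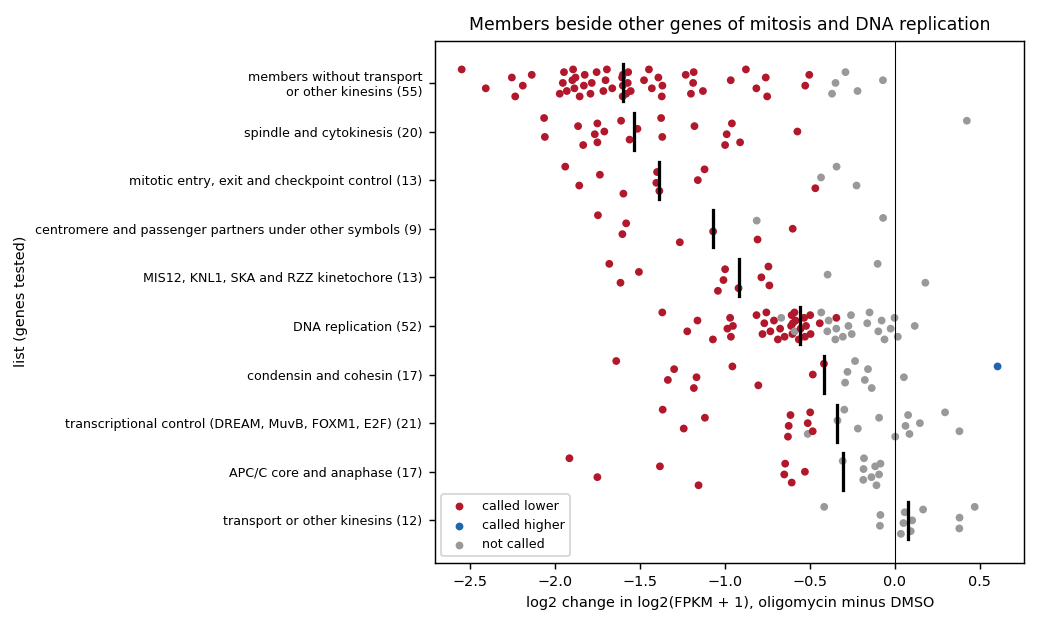
Log2 change of each gene (points) in the 55 members without transport or other kinesins, in 8 lists of other cell cycle genes, and in the 12 transport or other kinesins; red fell, blue rose, grey did not pass, and black bars are medians. Medians run from -1.60 for the members to 0.08 for the transport or other kinesins, with DNA replication at -0.56.

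The libraries themselves gave these limits. FPKM summed to between 1434030 and 2103400 a library, of which 170 small RNA rows took 71.7% to 82.0%, and the depth in reads is unknown. Rescaling every library to the same sum without small RNA rows left 49 members lower, moved the median of all genes to 0.10 and the share of lower among called genes from 53.4% to 39.3%. T cell markers were in the table for 6 of 7 genes, with summed FPKM of 704 to 836 with DMSO and 679 to 866 with oligomycin. Within that list Thy1 fell, from 81.1 ± 13.1 to 42.9 ± 16.1 FPKM (SD, n = 3; 1.89-fold, limma adjusted p = 0.0293), and Cd3d, Cd3e, Cd3g, Cd4 and Lck did not pass, with log2 changes from -0.18 to 0.24. All 5 Th17 markers were present, with sums of 1683 to 1947 and of 288 to 455. Their part in the changes of the members was not tested. Of the CD8 T cell markers Cd8b1 was at 2.41 to 3.30 FPKM over the 6 libraries. Of the listed markers, 0 of 5 for B cells, 0 of 6 for myeloid cells, 0 of 4 for NK cells and 0 of 5 for erythroid cells were among the 10041 rows used here, so no level can be given for those cell types.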

How the data were processed

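RNA was isolated on silica columns and sequenced after an Illumina library preparation, per the labels' protocols. The deposited values are FPKM, made by the authors; the tools in the submitters' processing notes are Cuffdiff (version 2.2.1.3), Cuffnorm (version 2.2.1.1), Cufflinks (version 2.2.1.0) and TopHat2 (version 2.1.0), and the build is GRCm38. The sources used here do not give the annotation, the scaling between libraries or the strand. FPKM are no counts and their low values showed no whole-read steps, so no count model was used. Genes that reached 1 FPKM in 3 or more libraries (9986 of 10041) were fitted with limma 3.58.1 in R 4.3.3 on log2(FPKM + 1), with an intensity trend and group as the only term, 2-sided, adjusted by Benjamini-Hochberg over all of them and called under 0.05. Folds are ratios of mean FPKM. The fit was tested on simulated data. Columns were assigned to groups by name; their numbers 1 to 3 are not those of the sample titles, so libraries were not paired by title. Members, roles and lists were chosen with earlier results of these data known, and the lists give no independent support. By the rule for named genes, called members and the uncalled member with the highest mean in each role are given by library, as are called genes and the 2 highest uncalled genes of each list where named. Promoter windows come from RefSeq (GRCm38.p6), 1 per gene, the one nearest the table's start. The alternatives tried were 2 other pseudocounts, 2 other filters, 2 other scalings, no trend, rows sharing a locus left out, a replicate block and leaving out each library.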

Additional observations from a re-analysis of the deposited data

How the results depend on the processing

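Across 15 other settings the number of members called lower stayed between 45 and 51 and their median change between -1.57 and -1.07; the value nearest 0, -1.07, came with a pseudocount of 5 FPKM, which by construction shrinks log2 changes. Of the 50 members called lower, 46 were called lower in every setting in which they were tested; Cenpk, Cenpm, Cenpb and Bub3 were not. Leaving out 1 library at a time gave 46 to 51 members lower, 0 to 1 higher (Kif1b, without oligomycin replicate 1) and medians from -1.54 to -1.36. Over all genes it gave 989 to 1861 lower and 780 to 1387 higher, against 1610 and 1403; the low counts came without a DMSO library (989 lower and 780 higher without DMSO replicate 3), and the cause was not tested. The sample titles repeat the same 3 numbers in each treatment, but the columns carry others. With a replicate block by column number 50 members were lower and 1 was higher (Kif13b, adjusted p = 0.0326). In their deviations from the group means, same-numbered libraries correlated at 0.0556, 0.247 and 0.132, and the other pairs at -0.216 to 0.117. Each DMSO library correlated best with the oligomycin library of its own number. Oligomycin replicate 1, however, correlated best with DMSO replicate 3 (0.117). A pairing by column number is thus possible, but no label states it. The main fit therefore used group alone, with the block fit given beside it. Small changes of uncalled genes reversed in sign: Kif3c to -0.031 with quantile normalization, Kif1c to 0.023 and Cenpo to 0.031 when rescaled to the same sum without small RNA rows (cause not tested). On leaving out 1 library Kif3a ran from -0.057 to 0.20, Kif1c from -0.18 to 0.035, Kif3c from -0.11 to 0.12, Kif3b from -0.053 to 0.16 and Kif16b from -0.055 to 0.16. Depth is unknown, so no limit from counting can be given for low genes such as Kif13a and Kif7.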

Other observations

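A pair of genes that the rule on symbols leaves out was looked up after the other values were seen. Cenpc1, the centromere protein that anchors the kinetochore to CENP-A chromatin, measured 18.1 ± 0.968 FPKM with DMSO and 11.3 ± 1.53 FPKM with oligomycin (SD, n = 3; log2 change -0.64, limma adjusted p = 0.00732). Kifap3, the cargo adaptor that joins the Kif3a and Kif3b motors, fell from 5.93 ± 0.443 to 3.37 ± 0.243 FPKM (log2 change -0.67, limma adjusted p = 0.0066), with every oligomycin library below every DMSO library. Kif3a and Kif3b had log2 changes of 0.09 and 0.06 and did not pass the test. Whether the adaptor differs from its motors was not tested.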
